A study of Mus musculus with 3 samples.

Results

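Open chromatin was examined around 9 genes that sit in, or are switched on by, the Nodal and BMP signalling pathways in mouse embryonic stem cells. The genes were the ligands Nodal and Bmp4, the secreted Nodal antagonists Lefty1 and Lefty2, the intracellular inhibitors Smad7 and Skil, and the BMP response genes Id1, Id2 and Id3. A peak was a member when its midpoint lay inside the body of one of these genes or within 50 kb of either end. This rule took 92 of 88898 Halo-Sox2 peaks, 94 of 83995 Halo-Sox2a peaks and 77 of 72638 control peaks. Merging peaks that overlapped by at least 1 bp gave 118 regions at the 9 loci, of 130664 regions in the whole series.

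The series asked how charge in the disordered parts of the pluripotency factor Sox2 bears on its search for sites and its opening of chromatin. The assay was ATAC-seq, in which the transposase Tn5 cuts and tags accessible DNA. The first library came from the line SES4.1, which carries doxycycline-inducible Halo-Sox2 and was given 300 ng/mL of the drug for 20 h. The second came from SES5.1, which carries inducible Halo-Sox2a, a form named but not described in the labels, and was given 70 ng/mL for 20 h. The third, labelled Ctrl, came from SES11, which has no inducible transgene, and no doxycycline dose is named for it. All 3 lines derive from CGR8 cells, and all were grown in serum and LIF with the GSK3 inhibitor CHIR99021 and the MEK inhibitor PD184352. The transgene cells were gated alike for Halo fluorescence, and the labels do not say that the control cells were sorted. Each group had 1 library, so the values below compare 3 libraries and carry no replicate error or p-value.

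Nodal binds activin receptors with a co-receptor of the Cripto family, and the receptors phosphorylate Smad2 and Smad3, which act on DNA with Smad4 and partners such as Foxh1. BMP ligands act through Smad1, Smad5 and Smad9. Both branches switch on their own inhibitors. In embryonic stem cells, BMP acting through Id proteins can hold back neural differentiation in the presence of LIF, and Nodal, Lefty1 and Lefty2 are transcribed through autocrine Nodal signalling.

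Peaks were compared by presence and by their standing within their own list. Presence means an overlap of at least 1 bp with a peak of another list. Standing is given as the score percentile, the percent of all peaks in the same list with a lower score. The score is the authors' whole number for each peak, and scores of different lists are not on a known common scale. A percentile also depends on how many weak peaks a list holds, so a difference in percentile is not a change in accessibility. The depth of the libraries is unknown.

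As a check of the cell type, 7 embryonic stem cell markers were searched for a peak midpoint within 1 kb of the gene start. Either end was used where no strand was given. Halo-Sox2 peaks lay there for 4 of 7 markers, and Halo-Sox2a and control peaks for 5 each. Pou5f1 and Esrrb had none in any list, whereas Zfp42 stood at percentiles 97.6, 99.1 and 99.8 in the same order. Ends of 3 of 3 neural, 4 of 4 mesendoderm and 3 of 4 endoderm marker genes also held peaks in all 3 lists, so a peak at a gene end does not separate these cell types. Trophoblast markers held them at 3, 3 and 2 of 4 genes. Member loci ended close to peaks on both sides of the rule, since the outermost member lay 49.7 kb from Id1 (Halo-Sox2, score 280, percentile 70.8) and the closest excluded peak 50.6 kb from Nodal (Halo-Sox2, score 613, percentile 91.8).

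RefSeq promoter sequences of build GRCm38.p6 were at hand for 4 of the 9 genes. The 250 bases before each start site are shown to set the open stretch of each promoter beside its sequence, each read 5′ to 3′ on the strand of the gene. Capitals mark matches to the letters searched on both strands.
Nodal (chr10:61417722-61417971, plus strand): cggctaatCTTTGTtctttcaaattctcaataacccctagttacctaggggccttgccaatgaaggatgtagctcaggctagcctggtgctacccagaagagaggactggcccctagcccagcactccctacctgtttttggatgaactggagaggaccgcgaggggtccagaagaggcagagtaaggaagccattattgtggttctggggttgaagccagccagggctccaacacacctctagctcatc
Bmp4 (chr14:46390670-46390919, minus strand): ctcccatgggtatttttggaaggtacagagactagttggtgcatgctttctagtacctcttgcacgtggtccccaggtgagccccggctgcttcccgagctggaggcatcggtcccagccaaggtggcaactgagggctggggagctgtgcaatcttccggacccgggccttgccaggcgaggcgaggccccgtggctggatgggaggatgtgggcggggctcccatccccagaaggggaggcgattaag
Id2 (chr12:25096093-25096342, minus strand): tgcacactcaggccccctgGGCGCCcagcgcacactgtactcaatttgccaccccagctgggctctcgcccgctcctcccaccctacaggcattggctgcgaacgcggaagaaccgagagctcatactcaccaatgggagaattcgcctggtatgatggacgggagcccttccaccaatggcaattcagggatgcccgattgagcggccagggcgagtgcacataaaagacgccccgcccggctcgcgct
Id3 (chr4:136143572-136143821, plus strand): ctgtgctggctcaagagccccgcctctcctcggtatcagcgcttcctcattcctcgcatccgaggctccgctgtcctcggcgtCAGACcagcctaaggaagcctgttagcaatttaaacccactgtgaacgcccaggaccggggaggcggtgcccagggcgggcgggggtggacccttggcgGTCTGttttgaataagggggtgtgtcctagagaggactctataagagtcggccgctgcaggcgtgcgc

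The capitals are CTTTGT in the Nodal promoter, the reverse complement of the SOX letters ACAAAG, which 16.5% of 32851 promoter windows of that length hold. GGCGCC, a GC-rich SMAD element, appears in the Id2 promoter and in 9.59% of all windows. The short SMAD element CAGAC or its reverse complement GTCTG appears in 2 places in the Id3 promoter and in 42.2% of windows at least in 1 place. The Bmp4 window holds none of the letters searched. The other searches were AATNNACA for FOXH1 (10.9% of windows), the composite SOX with OCT element (0.067%) and the SMAD palindrome GTCTAGAC (0.167%), and none of these matched the 4 windows.

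Peak cover of these windows differed between genes. The Id2 window was covered over all 250 bases in every list, and its GGCGCC match lay inside a peak in all 3. The Id3 window was covered over 212 bases by Halo-Sox2 peaks, 171 by Halo-Sox2a peaks and 160 by control peaks. Of the matches there, GTCTG lay inside a peak of every list. CAGAC (136143655 to 136143659) lay inside the Halo-Sox2 and Halo-Sox2a peaks but outside the control peak, whose edge fell between the matches. The control peak began at 136143662 and the Halo-Sox2a peak at 136143651, so this contrast rests on a few bases of called peak edge. The Bmp4 window was covered over 165 bases by Halo-Sox2a peaks, 133 by control peaks and 0 by Halo-Sox2 peaks. No list had a peak over any base of the Nodal window, and its CTTTGT match therefore lay outside all peaks.

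Regions held by all 3 lists were the commonest kind at the target loci. They made up 56 of 118 regions, or 47.5%, beside 32.1% over all merged regions. Regions of Halo-Sox2 alone numbered 15 (12.7%, beside 24.3% of all regions), those of Halo-Sox2a alone 14 (11.9%, beside 12.2%) and those of the control alone 5 (4.24%, beside 10.2%). Both transgene lists without the control held 13 (11.0%, beside 8.95%), Halo-Sox2a with the control 11 (9.32%, beside 10.3%) and Halo-Sox2 with the control 4 (3.39%, beside 1.9%). In all, 42 regions (35.6%) had no control peak, beside 45.5% of all merged regions. Regions near any protein-coding gene gave 34.8% held by all 3 lists and 22.7% of Halo-Sox2 alone, close to the series as a whole.

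Both the classes and the size of the loci varied between genes. Id1 had the most regions, 20, and the fewest came from Id3, with 7, while 21887 protein-coding genes had a median of 10 in windows built in the same way (quartiles 6 and 15). Id3 was the locus with the largest share in all 3 lists, 6 of 7, and Id1 the one with the smallest, 5 of 20. Lefty1 and Lefty2 lie 35.9 kb apart, so 11 of their 23 regions belong to both loci and were counted once.

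**Figure D1:**
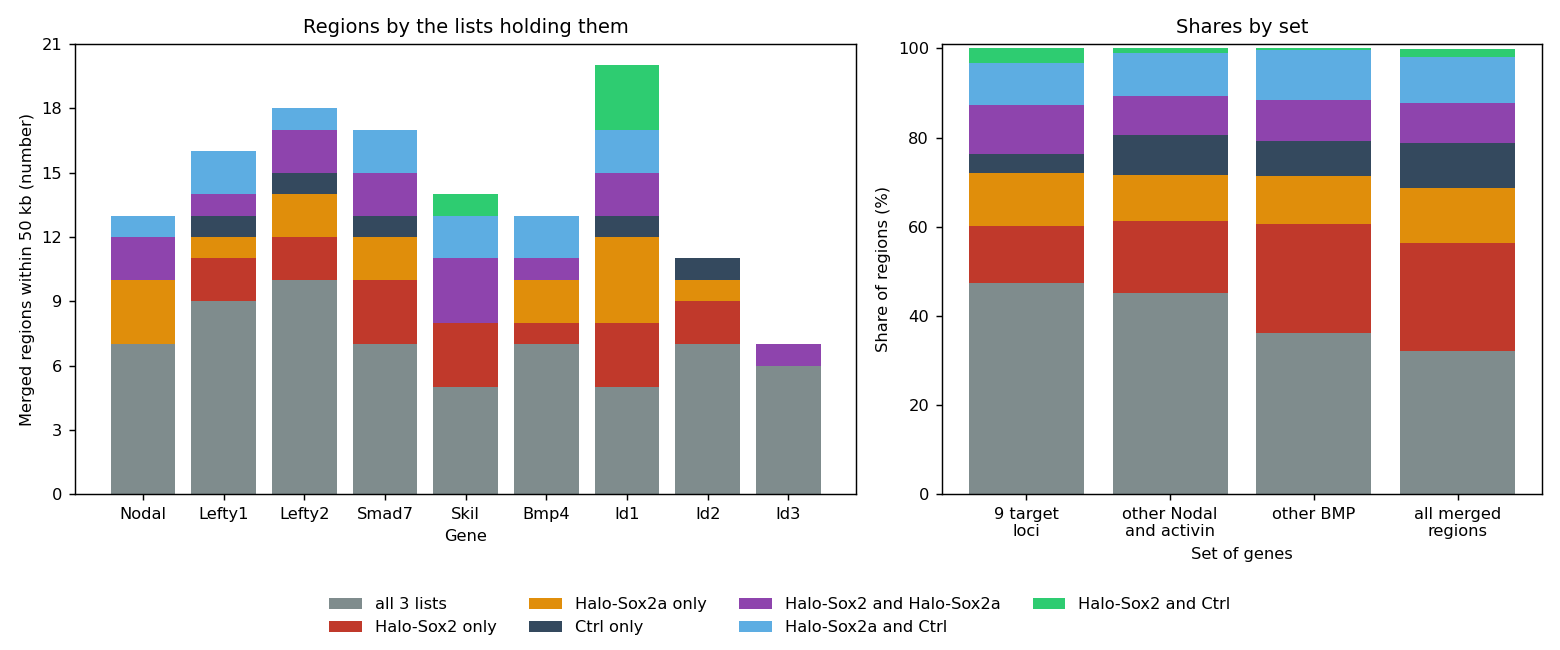
Left, merged regions within 50 kb of each gene (vertical axis, number), stacked by which of the 3 lists held a peak there. Right, the same classes as a share of regions (%) for the 9 target loci, for other genes of both pathways and for all merged regions, with regions of all 3 lists at 47.5% in the first bar and 32.1% in the last.

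With equal-size lists, made of the 72638 highest-scoring peaks of each, regions of Halo-Sox2 alone came to 6 of 105 at the loci (5.71%, beside 21.4% of all regions). Regions shared by Halo-Sox2a and the control were 19 of 105 in that setting (18.1%, beside 13.1%), and those shared by Halo-Sox2 and the control came to 1 (0.952%, beside 1.83%).

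Set against the control, 30 of the 92 member peaks of Halo-Sox2 had no overlapping peak, or 32.6% (exact 95% binomial interval 23.2 to 43.2%), and the share over the whole list was 49.3%. For Halo-Sox2a the count was 27 of 94, or 28.7% (19.9 to 39.0%), and the share over that list was 33.4%, inside the interval. The intervals of both proteins overlapped. The intervals cover counting error only, and peaks of a locus are not independent of each other.

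The direct comparison found 19 of 92 Halo-Sox2 peaks without a Halo-Sox2a peak (20.7%, 12.9 to 30.4%, beside 38.7% of the list). In the other direction, 25 of 94 Halo-Sox2a peaks had no Halo-Sox2 peak (26.6%, 18.0 to 36.7%, beside 35.4%). With equal-size lists the first share was 10.4% (7 of 67, beside 37.2%) and the second 34.8% (31 of 89, beside 37.1%). The second share was thus the larger in both settings, but with lists of full size the intervals overlapped. Over the whole lists the first share was the larger at full size, and the shares were nearly level at equal size. Of the 77 control peaks, 17 had no Halo-Sox2 peak (22.1%, 13.4 to 33.0%, beside 37.5%) and 9 no Halo-Sox2a peak (11.7%, 5.49 to 21.0%, beside 22.0%). Equal sizes gave 29 of 77 (37.7%, beside 45.1% of all control peaks) and 10 of 77 (beside 26.5%) for this pair.

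**Figure D2:**
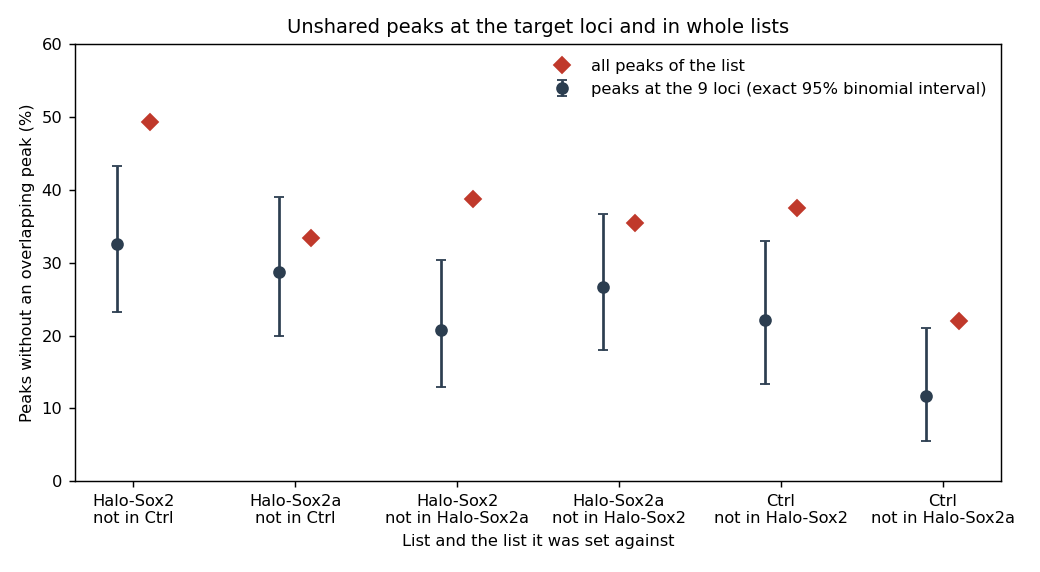
Share of peaks (%) of one list without an overlapping peak in another, for the peaks at the 9 loci (circles, with exact 95% binomial intervals) and for all peaks of the list (diamonds). The circle lies below the diamond in each of the 6 pairings, and 2 of the diamonds, Halo-Sox2a against the control and Halo-Sox2a against Halo-Sox2, fall inside the interval.

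Peaks found in 1 list alone were set beside the same class in the whole series. Regions of Halo-Sox2 alone had a median percentile of 13.8 there (range 2.77 to 62.3), beside 37.8 for that class in the whole series, and 3 of 15 reached percentile 50, beside 36.3%. Regions of Halo-Sox2a alone had a median of 20.6 (1.06 to 60.8), beside 19.2, and 1 of 14 reached percentile 50, beside 9.02%, so this class stood near its background. The median was 11.8 for the 5 regions of the control alone, beside 18.3.

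Nodal encodes the ligand that specifies mesendoderm and the left side of the embryo, and its gene (chr10:61417972-61425338) held 13 regions in the window. All 3 lists shared 7 of them, Halo-Sox2a alone held 3, both transgene lists held 2, and Halo-Sox2a with the control held 1. When a gap of up to 500 bp also counted as overlap, Nodal regions without a control peak went from 5 to 3. The list with the most peaks was Halo-Sox2a, with 13, against 9 for Halo-Sox2 and 8 for the control.

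The region just upstream of Nodal (chr10:61415608-61417257, midpoint 1.54 kb from the start) stood high in 2 lists. Halo-Sox2 scored 159 there (percentile 51.8), Halo-Sox2a 433 (92.4) and Ctrl 248 (87.3). Farther upstream, at 11.8 kb, a region (chr10:61405738-61406540) was called for Halo-Sox2a at 411 (percentile 91.5) and for the control at 73 (44.2). No Halo-Sox2 peak was called there. Another at 23.1 kb (chr10:61394627-61395114) had scores of 31, 150 and 83, at percentiles 3.27, 64.1 and 49.3 in the order Halo-Sox2, Halo-Sox2a, control. Over all 7 shared regions of the Nodal window, Halo-Sox2 stood lowest of the 3 lists at 5, and at 4 on a scale of shared regions alone, described below with its background. At 35.1 kb upstream the 3 libraries were nearly level, at 59.7, 60.7 and 57.3.

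Halo-Sox2 stood highest at the far end of the window. At 42.7 kb upstream (chr10:61374908-61375633), inside the neighbouring gene Pald1, Halo-Sox2 stood at percentile 64.0, Halo-Sox2a at 15.4 and the control at 32.6. Within the Nodal body, a region close to the start (chr10:61418155-61418731) was called in both transgene lists and not in the control, at low percentiles of 22.8 and 15.4. A second one (chr10:61423152-61423654) was held by all 3, at 26.3, 54.5 and 33.3. The region of highest mean standing lay over the end of the next gene, Eif4ebp2 (chr10:61452059-61453054), at 82.1, 91.2 and 90.6.

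Bmp4, the ligand of the BMP branch (chr14:46383525-46390669, minus strand), held 13 regions, 7 of them in all 3 lists. Its promoter region (chr14:46390187-46390834) was weak in every list, with scores of 39, 78 and 67 and percentiles of 6.65, 40.3 and 39.8 in the order Halo-Sox2, Halo-Sox2a, Ctrl. The Halo-Sox2 peak ended at 46390628, short of the promoter sequence shown above.

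The next region 1.25 kb upstream of Bmp4 (chr14:46391677-46392165) scored 84 for Halo-Sox2 (percentile 29.7), 441 for Halo-Sox2a (92.7) and 191 for Ctrl (80.0). At 28.4 kb upstream (chr14:46418416-46419627), percentiles were 10.3, 61.0 and 75.8 in the same order, the widest spread among the shared regions of this locus. At 7.86 kb (chr14:46398064-46398985) they were 44.0, 61.3 and 87.2. Inside the gene (chr14:46386917-46388010) Halo-Sox2 stood highest, at 63.6, with Halo-Sox2a at 49.3 and the control at 53.8. Of all 7 shared regions of Bmp4, Halo-Sox2 stood lowest at 4, by within-list percentile and on the scale of shared regions alone.

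Regions held in part also marked the Bmp4 upstream flank. At 22.2 kb (chr14:46412559-46413210), a region absent from the control scored 235 for Halo-Sox2 (percentile 65.2) and 474 for Halo-Sox2a (94.0). The latter is the highest percentile of any region without a control peak at the 9 loci. The region 20.2 kb upstream (chr14:46410637-46411102) was held by Halo-Sox2a (score 227, percentile 77.2) and the control (99, 57.0), with no Halo-Sox2 peak. The region at 33.7 kb (chr14:46424151-46424667) was held by Halo-Sox2 alone, with a score of 216 (62.3). Downstream of the gene, the region of highest mean standing over all lists lay at 44.3 kb (chr14:46338712-46339798), at 79.8, 86.6 and 73.7.

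**Figure D3:**
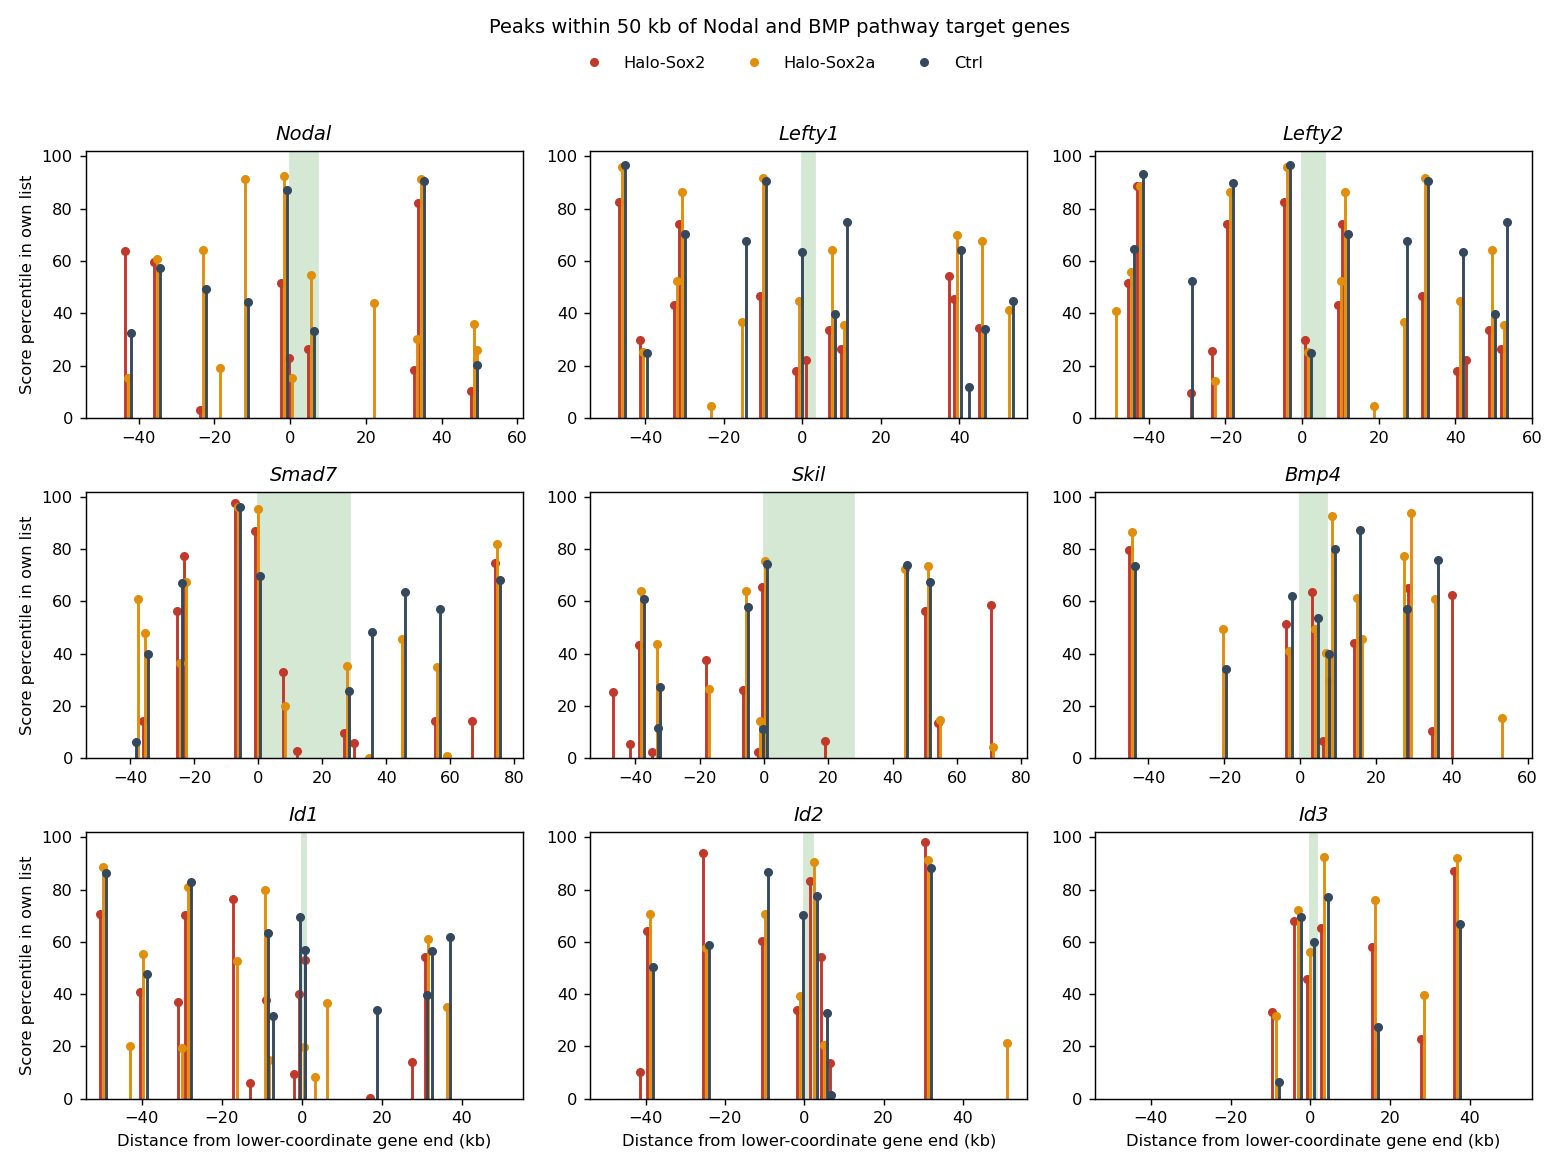
Peaks at each of the 9 loci, plotted by distance of the merged region from the lower-coordinate end of the gene (kb) and by the percentile of the highest peak within its own list. Green bands are gene bodies and the 3 lists are shifted sideways by 0.8 kb so that shared regions show as neighbouring lines, as at 92.4 and 87.3 for Halo-Sox2a and the control beside Nodal.

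Lefty1 (chr1:180935022-180938401) and Lefty2 (chr1:180893108-180899107) encode related antagonists that block Nodal at its receptors. They are close paralogs, and how reads that fit both genes were placed is not given in the sources used here. Of the 23 regions of the pair, 12 were in every list, 3 in Halo-Sox2 only, 2 in Halo-Sox2a only, 2 in Ctrl only, 2 in both transgene lists and 2 in Halo-Sox2a with the control.

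The highest mean standing of the pair belonged to a region 4.0 kb below Lefty2 in coordinates (chr1:180888140-180890087). Its scores were 412, 544 and 428 in the order Halo-Sox2, Halo-Sox2a, control, at percentiles 82.5, 95.8 and 96.8, the highest control value at the 9 loci. A region 9.93 kb below Lefty1 (chr1:180924646-180925542) had scores of 139, 415 and 286, at percentiles 46.8, 91.7 and 90.5. The region next to the lower end of Lefty1 (chr1:180933544-180934963) was lower in all lists, at 18.0, 44.6 and 63.5. Over all 12 shared regions of the pair, Halo-Sox2 stood lowest at 9, and at 5 on the scale of shared regions alone.

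Inside the gene bodies the peaks were weak. Lefty2 had 1 region in its body (chr1:180894194-180894950), at percentiles 29.7, 25.2 and 24.7 in the order Halo-Sox2, Halo-Sox2a, control. Lefty1 had 1 (chr1:180936551-180936967), of Halo-Sox2 alone, with a score of 68 (22.2). The widest spread among shared regions of the pair was at chr1:180945504-180945951, inside Tmem63a, where Halo-Sox2 stood at 26.5, Halo-Sox2a at 35.5 and the control at 74.8.

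Among regions held in part, chr1:180919664-180919968 was in Halo-Sox2a (score 72, percentile 36.6) and in the control (131, 67.6). Halo-Sox2 alone held chr1:180972905-180973467 inside Tmem63a (171, 54.3), and the control alone held chr1:180863570-180863902 inside Sde2 (87, 52.3).

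Smad7 (chr18:75367365-75395935) encodes an inhibitory Smad that blocks receptors of both branches and is itself induced by them. Of its 17 regions, every list held 7, Halo-Sox2 only 3, Halo-Sox2a only 2, the control only 1, both transgene lists 2, and Halo-Sox2a with the control 2. The region 6.39 kb below the gene (chr18:75360490-75361465) stood near the top of every list, with scores of 897, 568 and 401 and percentiles of 97.5, 96.3 and 96.0. Over the lower end of the gene (chr18:75366412-75367860), Halo-Sox2 scored 490 (percentile 87.0), Halo-Sox2a 528 (95.4) and Ctrl 138 (69.7). Both transgene libraries thus stood above the control at this gene end and close to it at the neighbouring region.

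A region 22.5 kb below Smad7 (chr18:75344185-75345629) was called in both transgene lists, with scores of 345 and 164 (percentiles 77.2 and 67.4), and not in the control. Halo-Sox2a alone held chr18:75329574-75330198 (score 136, percentile 60.8). On the other side of the gene, chr18:75411955-75412687 was held by Halo-Sox2a (92, 45.5) and the control (116, 63.5). The widest spread among shared regions here was at chr18:75422777-75423682, with percentiles of 14.4, 34.8 and 57.3 in the order Halo-Sox2, Halo-Sox2a, control.

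Skil (chr3:31095058-31122923) encodes SnoN, a co-repressor that binds Smad proteins and is degraded and then resynthesised on signalling. It had 14 regions, of which 5 were in all 3 lists, 3 in Halo-Sox2 alone, 3 in both transgene lists, 2 in Halo-Sox2a with the control and 1 in Halo-Sox2 with the control. The region over its lower end (chr3:31094419-31096102) had scores of 238, 213 and 158, at percentiles 65.5, 75.4 and 74.4. A weak region beside it (chr3:31093749-31094163) stood at 2.48, 14.2 and 11.2. The 3 libraries were closer to each other at this gene end than at that of Smad7.

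Of the regions of Skil held in part, chr3:31138419-31139194, on the higher-coordinate side, was nearly level in Halo-Sox2a (score 194, percentile 72.4) and the control (157, 73.8), with no Halo-Sox2 peak. The region chr3:31165997-31166694 was in both transgene lists with unequal standing, at 58.5 in Halo-Sox2 and 4.48 in Halo-Sox2a. The region with the widest spread among the shared ones (chr3:31089074-31089660) stood at 26.3, 63.9 and 57.7.

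The Id genes encode helix-loop-helix proteins without a DNA-binding region, which pair with other such factors and keep them off DNA. Together the loci of Id1, Id2 and Id3 held 38 regions, 18 of them in all 3 lists, and 13 without a control peak.

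Id1 (chr2:152736251-152737410) had 5 of its 20 regions in all 3 lists. Over its lower end, a region (chr2:152736109-152736495) was held by Halo-Sox2 (score 113, percentile 40.0) and the control (98, 56.8). The Halo-Sox2a list had no peak there and instead a weak one inside the gene (chr2:152736624-152736954, score 43, percentile 19.8). Just beyond the higher end, chr2:152737444-152738032 was held by Halo-Sox2 alone (162, 53.2). A region 1.24 kb below the gene (chr2:152734695-152735322) was again in Halo-Sox2 (41, 9.39) and the control (137, 69.6) only. Of the 4 regions at the 9 loci that Halo-Sox2 and the control shared without Halo-Sox2a, 3 were at Id1. When a gap of up to 500 bp also counted as overlap, the class made up 2 of 111 regions at the loci (1.8%, beside 1.94% of all merged regions).

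The Id1 flank on the lower side also held regions missing from single lists. At 16.2 kb (chr2:152719764-152720238), both transgene lists had a peak, with scores of 337 and 110 (percentiles 76.5 and 52.7), and the control had none. At 9.26 kb (chr2:152726439-152727541), Halo-Sox2a (250, 79.8) and the control (116, 63.5) had a peak, and Halo-Sox2 had none. On the higher side, Halo-Sox2a and the control also shared chr2:152772109-152772784, inside Bcl2l1, at 35.1 and 61.9. The region of highest mean standing among those in all 3 lists lay at 49.6 kb, inside H13 (chr2:152685935-152687324), at 70.8, 88.6 and 86.2. The widest spread among them was at chr2:152727897-152728478, with 37.8, 14.8 and 31.7.

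At Id2 (chr12:25093799-25096092, minus strand), 7 of 11 regions were in all 3 lists. The promoter region, whose sequence is given above (chr12:25095843-25096502), had scores of 424, 395 and 176 and percentiles of 83.3, 90.7 and 77.6 (Halo-Sox2, Halo-Sox2a, Ctrl). The region 29.0 kb upstream (chr12:25124280-25125886) stood highest, with scores of 963, 405 and 257 at 98.1, 91.2 and 88.1. The region 24.9 kb downstream (chr12:25068384-25069476) had a Halo-Sox2 score of 696 (94.1), a Halo-Sox2a score of 124 (57.8) and a control score of 105 (58.6). Over the 7 shared regions of Id2, Halo-Sox2 stood lowest at 2 and highest at 3 by within-list percentile. On the scale of shared regions alone, Halo-Sox2 stood lowest at 0 and highest at 4, and Halo-Sox2a lowest at 4. Over all shared regions Halo-Sox2 stood lowest at 54.8% and 37.9% on these scales, and highest at 19.9% and 32.8%. No region of Id2 held in part reached percentile 50 in any list.

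Id3 (chr4:136143822-136145392) had 7 regions, 6 of them in all 3 lists, and the remaining one, at an end of E2f2 (chr4:136171990-136172574), in both transgene lists at percentiles 22.8 and 39.8. Its promoter region (chr4:136143610-136144070) had scores of 133, 121 and 106, at 45.9, 56.2 and 60.1. The region at 35.2 kb downstream, inside E2f2 (chr4:136180066-136181172), had scores of 495, 425 and 128, at 87.2, 92.1 and 67.0. At 14.7 kb downstream (chr4:136159618-136160572), percentiles were 58.0, 76.0 and 27.3. The nearest downstream region, at 1.95 kb (chr4:136146644-136148034), stood at 65.2, 92.5 and 77.3. Upstream, at 8.69 kb (chr4:136134527-136135742), the values were 33.0, 31.8 and 6.49. By within-list percentile, the control stood lowest at 3 of the 6 shared regions of Id3 and Halo-Sox2 at the other 3. On the scale of shared regions alone, the control stood lowest at 3, Halo-Sox2a at 2 and Halo-Sox2 at 1. Over all shared regions the control stood lowest at 29.8% and 32.2% on these scales, and Halo-Sox2 at 54.8% and 37.9%.

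The 56 regions of all 3 lists were then set side by side by standing. Their median percentiles were 53.0, 64.1 and 64.5 in the order Halo-Sox2, Halo-Sox2a, control, beside 61.5, 72.2 and 67.8 over all 41984 such regions. Because lists differ in length and in their weak peaks, each list was also ranked over these 41984 regions alone. On that common scale the target loci had medians of 40.8, 38.4 and 45.5, so in all 3 libraries they lay below the middle of the shared regions.

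On the common scale, Halo-Sox2 stood at least 25 points above the control at 6 of the 56 regions, beside 14.4% of all shared regions, and at least 25 points below it at 11, beside 13.9%. Halo-Sox2a stood at least 25 points above the control at 4, beside 10.6%, and below it at 9, beside 9.95%. Halo-Sox2 stood that far above Halo-Sox2a at 5, beside 10.7%, and below it at 6, beside 10.7%. Halo-Sox2 stood lowest of the 3 lists at 24 of the 56 (42.9%), beside 37.9% of all shared regions, and by within-list percentile at 35 (62.5%), beside 54.8%. The median difference was -4.09 points for Halo-Sox2 minus control, -0.913 for Halo-Sox2a minus control and -3.05 for Halo-Sox2 minus Halo-Sox2a, beside -1.52, -0.457 and -0.412 over all shared regions. Both comparisons with the control use the same control library.

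Within-list percentiles over regions of both lists of a pair gave medians of -10.2 points (60 regions, beside -5.04), 2.47 (67 regions, beside 1.31) and -9.35 (69 regions, beside -5.16) in the same order. On this scale Halo-Sox2 stood at least 25 points above the control at 4 regions, beside 10.9%, and below it at 16, beside 19.2%. Halo-Sox2a stood that far above the control at 6, beside 12.7%, and below it at 7, beside 8.34%. Halo-Sox2 stood that far above Halo-Sox2a at 4, beside 10.7%, and below it at 16, beside 18.8%. The sign of the median for Halo-Sox2a against the control therefore changed with the scale.

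**Figure D4:**
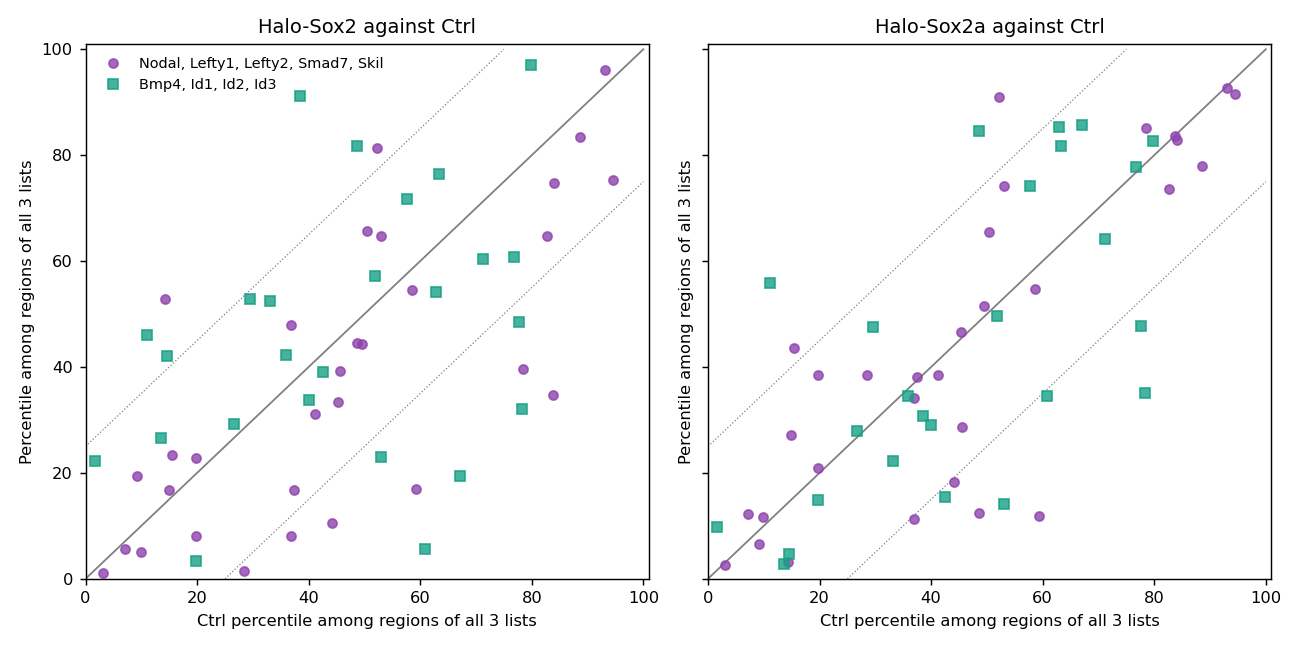
Each point is 1 of the 56 regions at the target loci held by all 3 lists, with its control percentile among the 41984 shared regions (horizontal) and its percentile in the Halo-Sox2 or Halo-Sox2a list on the same scale (vertical). The solid line marks equal standing and the dotted lines 25 points above and below it, with 6 and 11 points outside them for Halo-Sox2 and 4 and 9 for Halo-Sox2a.

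Other genes of the pathways, from a list of ligands, processing enzymes, receptors, Smads, cofactors and inhibitors, gave a background for the targets. The 19 further genes of the Nodal and activin branch had 253 regions, 45.1% of them in all 3 lists, 16.2% of Halo-Sox2 alone and 35.2% without a control peak. These shares lay close to those of the 9 target loci, 47.5%, 12.7% and 35.6%. The 21 further genes of the BMP branch had 269 regions, with 36.1%, 24.5% and 44.6% in the same order, near the values of the whole series. All 40 genes had at least 1 region shared by the 3 lists and at least 1 without a control peak. Having both is common, since the 21887 protein-coding genes had a median of 4 of each kind (quartiles 2 and 6).

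Most of these other genes held gene-end peaks, counted where the midpoint of a merged region lay within 1 kb of an end. The counts were 15, 16 and 16 of 19 Nodal and activin genes in the order Halo-Sox2, Halo-Sox2a, control. In the BMP branch they were 20 of 21 genes in every list. Smad1, Smad2 and Ski were among the genes with such peaks in all lists. Smad1, a BMP effector, stood at percentiles 91.9, 94.5 and 93.5 in the order Halo-Sox2, Halo-Sox2a, control, and Smad2, an effector of Nodal, at 70.4, 86.2 and 96.3. Ski, a co-repressor related to Skil, stood at 91.1, 83.9 and 84.5. Tdgf1, which encodes the co-receptor Cripto, had weak peaks at its ends for Halo-Sox2a (14.8) and the control (6.49) and none for Halo-Sox2. For the 9 targets the midpoint of each list's own peak was used instead, so their counts are not on the same measure. By that measure, each list had a peak midpoint within 1 kb of an end at 7 of them, but not at the same 7. Nodal had one in both transgene lists and not in the control, Lefty1 had one in the control only, and Lefty2 had none in any. The share over all genes is not given here.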

How the data were processed

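ATAC-seq peak lists of 3 libraries, 1 per group, were used. Each peak's score is a whole number deposited by the authors, its scale not given in the sources used here. Each list's peak names carry 1 library name. The submitters' processing notes name build mm10, STAR, SAMtools, MACS2 (3.0.0a7), MACS3 and deepTools (3.3.0), without roles, thresholds or a Tn5 shift. List names carry the word noblacklist.

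Starts were made 1-based. Peaks overlapping by at least 1 bp were merged, and a merged region takes the highest peak of each list. Gene bodies and promoters came from RefSeq GRCm38.p6. Strand was known only for the 4 genes with promoter sequences, and exons and introns were not annotated, so other positions are given by coordinate side. Overlap code was tested on simulated lists. Python 3.11.15, pandas 2.3.3 and scipy 1.17.1 were used.

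The members, gene lists and rules were chosen with earlier results of these data known. Named regions are, per gene, the one nearest the start or an end, the one of highest mean percentile, those held in part with a percentile of at least 50, and the shared one of widest spread. One region that this rule names is not reported here. Others named were chosen after their values were seen. Alternatives changed the overlap (50% of the shorter peak, or gaps of up to 500 bp), score threshold, list size and window. No test between conditions was possible with 1 library per group.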

Additional observations from a re-analysis of the deposited data

Results flagged for a closer look

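At 4 regions shared by all lists, the 2 transgene libraries stood on opposite sides of the control by at least 10 points on the scale of shared regions. The difference was not tested, and both values share 1 control library. How many of all 41984 shared regions do so is not given here, so the count has no background. Values by within-list percentile follow in brackets, and at the regions inside Bmp4 and beside Id1 they do not reach 10 points on both sides. At chr10:61374908-61375633, in the far upstream flank of Nodal, Halo-Sox2 minus control was 38.5 points and Halo-Sox2a minus control was -11.2 (31.4 and -17.2). At chr14:46386917-46388010, inside Bmp4, the values were 19.3 and -10.8 (9.79 and -4.52). At chr14:46391677-46392165, upstream of Bmp4, they were -47.7 and 18.6 (-50.3 and 12.7). At chr2:152727897-152728478, on the lower side of Id1, they were 12.9 and -10.7 (6.15 and -16.9).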

How the results depend on the processing

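Over 6 alternative settings and 1 chosen after seeing the data (the scale of shared regions), 86 of 99 recomputed values of the shares, classes, medians and region totals stayed within the 95% interval of the value reported (totals: within 1.5 times), 11 moved and 2 changed sign. With equal-size lists, Halo-Sox2 peaks without a Halo-Sox2a peak came to 10.4%, control peaks without a Halo-Sox2 peak to 37.7% (beside 45.1% of all), regions of Halo-Sox2 alone to 5.71%, regions of Halo-Sox2a with the control to 18.1%, and the median difference of Halo-Sox2 minus control to -17.4 points. That of Halo-Sox2a minus control changed sign, to -1.21 points. Keeping peaks above the 25th score percentile gave 33.3% for control peaks without a Halo-Sox2 peak (beside 37.5% of all) and 18.5% for regions of Halo-Sox2a with the control (beside 11.4%). On the scale of shared regions, the median differences were -4.09 (Halo-Sox2 minus control), -0.913 (Halo-Sox2a minus control, changed sign) and -3.05 points (Halo-Sox2 minus Halo-Sox2a). The cause was not tested. Windows of 20 and 100 kb gave 60 and 195 regions, by construction. Of 108 counts for single genes, 38 moved by over 1.5 times, 28 of them in the windows of other size. No paired analysis was possible because each group has 1 library. Depth limits what a missing peak can show.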

Other observations

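Neighbouring genes contributed as many gene-end regions as the targets themselves. Of the 118 regions, 12 were centred within 1 kb of a target gene's end and 12 that close to the end of another protein-coding gene, with 8 of each kind in all 3 lists. The remaining 94 lay away from such ends, and 40 of them were in all 3 lists. How often regions at gene ends are shared over the whole series is not given here, so these counts have no background. Neighbours with a shared region at an end included Sde2 and Tmem63a beside the Lefty genes, Pald1 and Eif4ebp2 beside Nodal, and Mcts2 and H13 beside Id1. Ends of Cldn11, beside Skil, and of E2f2, beside Id3, held regions of both transgene lists without a control peak. An end of Cox4i2, beside Id1, held a region of Halo-Sox2 and the control, and another of Halo-Sox2 alone.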
